A study of Mus musculus with 16 samples.

Results

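The 10 genes described here encode the E2F transcription factors E2f1 to E2f8 and their dimerisation partners Tfdp1 and Tfdp2. They were chosen by gene symbol and make up 10 of the 32826 genes listed in any of 3 deposited count tables, and all 10 are in each table. No measured value decided which genes belong, but the family was put forward with earlier results of these data known, among them the lower level of E2f8 after Yeats2 depletion. Every comparison that holds AID-Yeats2 libraries is therefore a description. No p is printed for it, and where its calls are counted beside the share of all genes called, nothing is read from the count. Results of AID-Zzz3, AID-Tada3 and Supt7l-/- against WT were known as well, so the calls there are also a description. The adjusted p printed for those lines is not an independent test of the family.

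E2F proteins bind DNA at the start sites of genes needed for DNA replication. E2f1, E2f2 and E2f3 are the activators. E2f4 and E2f5 repress with the pocket proteins Rb1, Rbl1 and Rbl2, and E2f6 represses without them, in part within a Polycomb complex. E2f1 to E2f6 bind DNA with a DP protein (Tfdp1 or Tfdp2), while the atypical repressors E2f7 and E2f8 bind without one. Cyclin-dependent kinases release E2F from the pocket proteins, and embryonic stem cells are known for high activity of these kinases through most of their cycle.

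All libraries came from E14 mouse embryonic stem cells grown in serum with leukaemia inhibitory factor, 3 µM CHIR99021 (a Gsk3 inhibitor) and 1 µM PD0325901 (a Mek inhibitor), and every line, WT included, received auxin (IAA) for 24 hours. Newly made RNA was labelled with 4-thiouridine (4sU) for 15 minutes and purified, giving 14 4sU libraries. The other 2 libraries hold total RNA. Auxin directs proteins with an AID tag to degradation through Tir1, so the AID-Zzz3, AID-Tada3 and AID-Yeats2 lines lose the tagged protein, while Supt7l-/- is a knockout. Protein levels were not analysed here. Zzz3 and Yeats2 belong to the ATAC acetyltransferase complex, Supt7l to the SAGA complex and Tada3 to both. Each mutant is represented by 2 independent clones and each WT group by 1 plain line and 1 line overexpressing Tir1/BirA, so the spread is that between clones or lines. The labels used here do not state whether the mutant clones carry Tir1/BirA. Project 1 held WT total RNA, WT 4sU and AID-Tada3. Project 2 held WT 4sU, AID-Yeats2 and Supt7l-/-, and project 3 held WT 4sU and AID-Zzz3. These 3 sequencing projects span several years, and each mutant was compared with the WT 4sU libraries of its own project.

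The 4sU libraries held 8268061 to 15994518 mouse gene counts and the total RNA libraries 4903998 and 6378707. The 10 genes took 0.0635% to 0.0878% of the counts of a 4sU library. Nascent RNA of the targeted gene was lower in both clones of AID-Tada3 (12.2 and 10.5 CPM against 31.2 and 23.9 in WT), AID-Yeats2 (108 and 186 against 241 and 254) and AID-Zzz3 (289 and 301 against 435 and 452). It was 8.82 and 14.0 CPM in the libraries labelled Supt7l-/- against 13.8 and 14.2 in WT, so the count of Supt7l did not separate replicate 2 from WT. The kind of lesion is not given in the sources used here. Levels are given as CPM, each count as a share of the library's total after TMM scaling, which sets libraries to each other on the bulk of their genes. The 5 stem cell markers present summed to 1368 to 1738 CPM in the 4sU libraries. The 5 fibroblast markers present summed to 0.173 to 11.1 CPM, with 7.01 and 7.02 in WT of project 2, 1.11 and 11.1 in AID-Yeats2 and 1.67 and 1.81 in the libraries labelled Supt7l-/-. Their part in the results was not tested. In bulk RNA, fewer cells of a kind and less RNA per cell cannot be told apart.

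Promoter sequences are shown for E2f3, Tfdp1, E2f8 and E2f7, chosen after their values were seen as the 4 members with the most negative log2 differences from WT in both AID-Yeats2 and AID-Zzz3. Not all of these differences passed the test, as given with the values. They are RefSeq windows of GRCm38.p6 from 250 bases before to 30 bases after the annotated start, 5′ to 3′ on the strand of the gene. E2f3 lies on the minus strand (chr13:29986034-29986313), Tfdp1 on the plus strand (chr8:13338501-13338780), E2f8 on the minus strand (chr7:48881567-48881846) and E2f7 on the plus strand (chr10:110745189-110745468). In all 4 the RefSeq start equals the gene start in the deposited tables. Capitals mark matches on either strand to an E2F word (TTTCCCGC, TTTGGCGC, TTTCGCGC or TTTGCCGC), to the cell cycle homology region word TTTGAA or to the CCAAT box.

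E2f3: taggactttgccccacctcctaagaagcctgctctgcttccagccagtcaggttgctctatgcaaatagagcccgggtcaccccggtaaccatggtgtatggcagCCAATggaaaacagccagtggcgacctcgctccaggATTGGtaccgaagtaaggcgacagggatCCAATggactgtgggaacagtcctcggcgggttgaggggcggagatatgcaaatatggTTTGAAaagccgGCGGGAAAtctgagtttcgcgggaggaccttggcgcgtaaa

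Tfdp1: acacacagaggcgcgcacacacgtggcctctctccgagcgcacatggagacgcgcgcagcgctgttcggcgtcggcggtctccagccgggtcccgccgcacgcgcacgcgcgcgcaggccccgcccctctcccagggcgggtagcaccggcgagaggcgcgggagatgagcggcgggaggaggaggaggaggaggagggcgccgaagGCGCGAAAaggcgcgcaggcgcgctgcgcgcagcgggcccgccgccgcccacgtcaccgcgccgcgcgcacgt

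E2f8: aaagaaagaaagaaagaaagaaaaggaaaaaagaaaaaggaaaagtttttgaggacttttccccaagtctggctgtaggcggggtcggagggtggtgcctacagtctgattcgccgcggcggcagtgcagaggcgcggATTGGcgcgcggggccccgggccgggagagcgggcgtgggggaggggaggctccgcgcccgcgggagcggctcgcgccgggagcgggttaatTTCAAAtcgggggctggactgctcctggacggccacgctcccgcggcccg

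E2f7: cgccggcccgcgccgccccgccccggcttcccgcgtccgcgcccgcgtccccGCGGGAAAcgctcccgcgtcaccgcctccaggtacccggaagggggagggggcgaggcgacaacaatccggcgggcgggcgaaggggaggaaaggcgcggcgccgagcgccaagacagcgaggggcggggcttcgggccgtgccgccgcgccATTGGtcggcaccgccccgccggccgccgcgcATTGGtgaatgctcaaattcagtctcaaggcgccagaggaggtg

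The windows of E2f3, Tfdp1 and E2f7 hold 1 E2F word each. It is GCGGGAAA at -11 to -4 from the start in E2f3, GCGCGAAA at -43 to -36 in Tfdp1 and GCGGGAAA at -198 to -191 in E2f7. The E2f8 window holds none of the 4 words. A cell cycle homology word stands at -23 to -18 in E2f3, just upstream of its E2F word, and at -20 to -15 in E2f8. CCAAT boxes number 3 in E2f3, 2 in E2f7 and 1 in E2f8. No searched word overlaps another in these windows. Among all 32851 RefSeq windows of 280 bases, 2.12% hold an E2F word, 17.2% a cell cycle homology word and 36.1% a CCAAT box. G and C make up 77.5% of the Tfdp1 window, 76.4% of E2f7, 64.6% of E2f8 and 56.1% of E2f3. The windows of E2f1, E2f2, E2f6 and Tfdp2 hold no E2F word. Of these, the entries of E2f1 and Tfdp2 start 466 and 62430 bases inside the deposited gene span. E2f4 and E2f5 have no promoter entry. Outside the 4 windows shown, only those of E2f2 and E2f6 therefore lie near the gene start. A match describes letters only and does not show binding.

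The genes are spread over 9 chromosomes in GRCm38, with Tfdp1 (chr8:13338751-13378448) and E2f4 (chr8:105297663-105305370) on the same one. E2f3 (chr13:29906575-29986063), E2f5, E2f7 and E2f8 each overlap an annotated gene on the opposite strand, and Tfdp2 overlaps 1 on each strand. Whether reads were counted by strand is not given in the sources used here, so reads of those partners cannot be told apart from reads of the members.

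Levels of different genes are compared as CPM per kilobase of the median transcript length in the deposited tables. In the 6 WT 4sU libraries Tfdp2 was highest, with a median of 107 (99.8 to 116). Tfdp1 (median 69.4, range 63.8 to 78.1) and E2f3 (median 68.8, range 65.8 to 72.1) followed, with overlapping ranges. E2f7 had 48.3 (41.2 to 58.2), E2f5 37.2 (31.3 to 39.8) and E2f4 22.8 (20.4 to 25.7), and these 3 ranges stood apart. The lowest were E2f1 at 10.1 (9.39 to 11.3), E2f2 at 7.42 (6.19 to 8.46), E2f6 at 6.497 (4.77 to 8.23) and E2f8 at 5.68 (5.12 to 6.75). E2f1 lay above the other 3, and E2f2, E2f6 and E2f8 did not separate from each other in range. The order depends on the length used. With all annotated exons of a gene merged (GENCODE M21), E2f3 was highest at 58.2, followed by E2f5 at 36.9, Tfdp1 at 32.1 and Tfdp2 at 15.0. E2f7, whose length is 827 bases by the median transcript and 9009 by merged exons, then had 4.43.

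**Figure D1:**
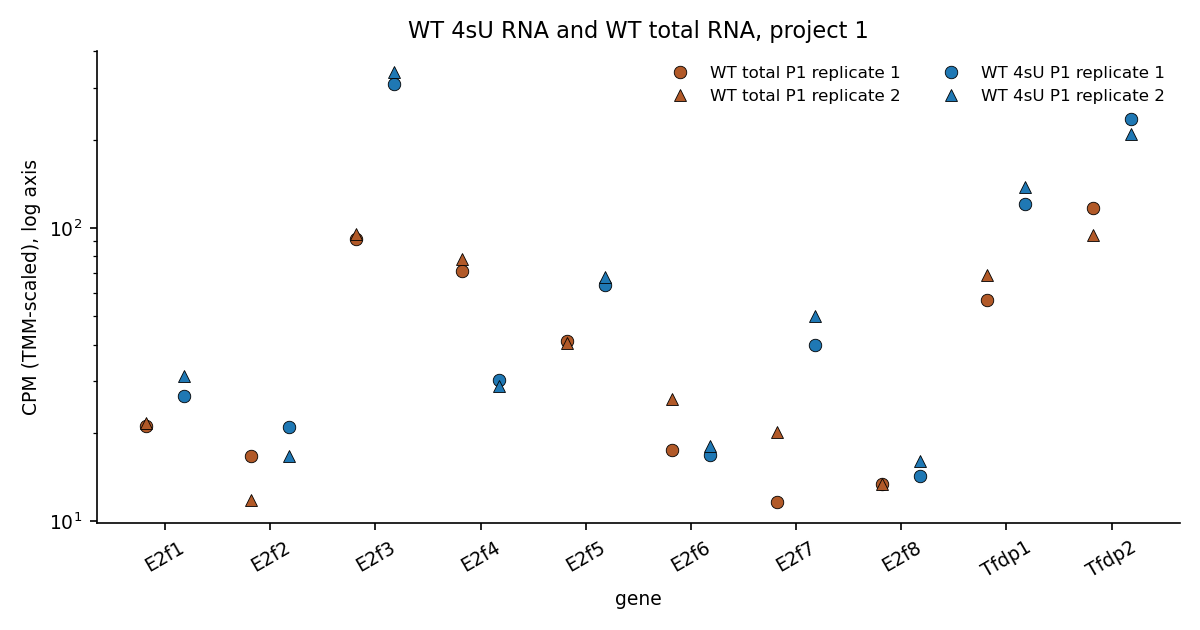
CPM of each gene (log axis) in the 2 WT total RNA and the 2 WT 4sU libraries of project 1, circles for the plain line and triangles for the Tir1/BirA line. Within a gene, E2f4 sits higher in total RNA and E2f3, E2f5, E2f7, Tfdp1 and Tfdp2 higher in 4sU RNA, while E2f2 and E2f6 overlap.

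Comparing 4sU RNA with total RNA of the same WT lines asks how the share of a gene among RNA made within 15 minutes relates to its share among all RNA. E2f3 stood at 310 and 339 CPM in 4sU RNA against 91.8 and 95.5 in total RNA, a log2 difference of 1.79 ± 0.14 (SE, n = 2 against 2, edgeR adjusted p = 4.93e-05). E2f4 went the other way, with 30.4 and 28.9 CPM in 4sU RNA against 71.0 and 78.6 in total RNA (log2 -1.34 ± 0.15, adjusted p = 0.000212). These 2 genes, 1 activator and 1 repressor, bound the range of the family.

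Of the 10 genes 5 were higher in 4sU RNA, where 30.4% of all 14494 tested genes were, and 1 was lower, where 33% were. The other higher genes were E2f7 (1.48 ± 0.27), Tfdp2 (1.07 ± 0.16), Tfdp1 (1.04 ± 0.16) and E2f5 (0.69 ± 0.15) on the log2 scale. E2f8 was 14.2 and 16.1 CPM in 4sU RNA and 13.4 in both total RNA libraries, with a difference of 0.18 ± 0.20 that did not pass (adjusted p = 0.462). E2f1 differed by 0.44 ± 0.18 (adjusted p = 0.0623), and with the WT line as a replicate block it passed (0.44 ± 0.17, adjusted p = 0.0177). E2f2 (0.41 ± 0.24) and E2f6 (-0.33 ± 0.23) did not pass, although E2f6 did without replicate 1 of total RNA. The kinds of library also differ in ribosomal RNA removal and in fragmentation, per the labels' protocols, and this cannot be told apart from the kind of RNA.

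Across the 6 WT 4sU libraries the Tir1/BirA lines were compared with the plain lines. None of the 10 genes passed in edgeR, where 1.24% of 14181 tested genes did, and DESeq2 called 0. None had an unadjusted p under 0.05, where 1982 of the 14181 genes did. The widest differences were E2f6 at -0.25 ± 0.15 and E2f2 at -0.20 ± 0.12 (log2).

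**Figure D2:**
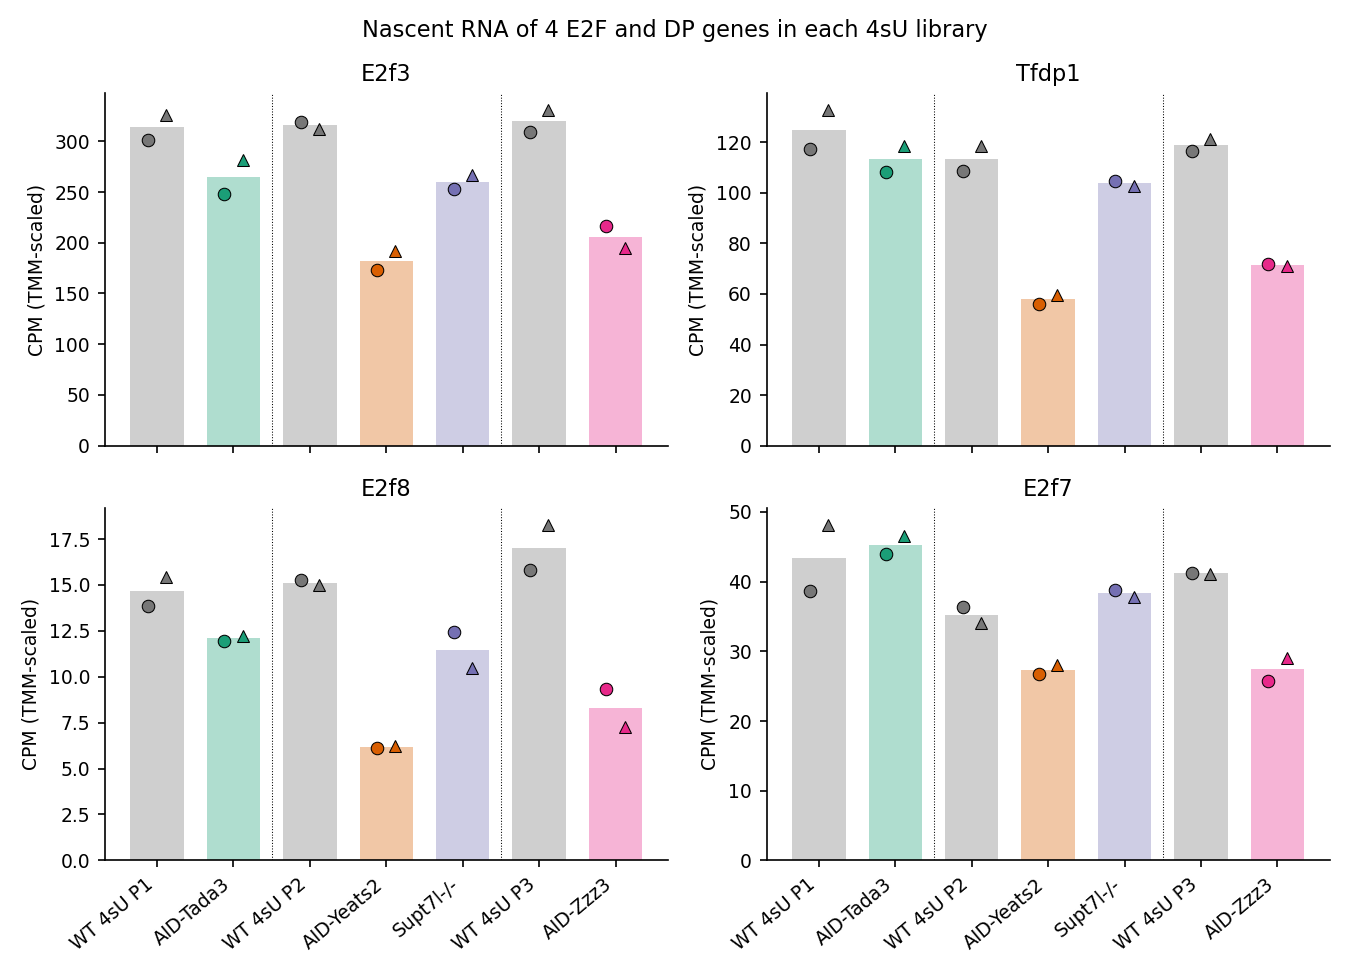
CPM of E2f3, Tfdp1, E2f8 and E2f7 in each 4sU library, with bars for the mean of 2 libraries, circles for replicate 1 and triangles for replicate 2, and dotted lines between projects. In all 4 genes both AID-Yeats2 and both AID-Zzz3 libraries lie below the WT libraries of their project.

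Each mutant was set against WT to ask which members lost or gained nascent RNA without that subunit. AID-Yeats2 and Supt7l-/- share their WT libraries. In AID-Yeats2, 3 of the 10 genes were lower at an edgeR adjusted p under 0.05 (E2f3, E2f8 and Tfdp1), where 1.55% of 14239 tested genes were, and 0 were higher, where 2.28% were. DESeq2 called 3 members, and 6 had an unadjusted p under 0.05, as did 2729 of all 14239 tested genes. In AID-Zzz3, 2 genes fell (E2f3 and Tfdp1), where 0.303% of 14529 tested genes did, and 0 rose, where 0.681% did. DESeq2 called 3 members there, and 4 had an unadjusted p under 0.05, as did 1869 of all 14529 tested genes. In AID-Tada3 0 of the 10 passed in edgeR, where 0.0331% of 15099 genes did, and 0 in DESeq2. An unadjusted p under 0.05 was found there for 2 members and for 1208 of all 15099 genes. Supt7l-/- gave 0 calls in edgeR, where 1.88% of 13955 genes were called, and 0 in DESeq2. An unadjusted p under 0.05 was found there for 5 members and for 2235 of all 13955 genes.

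Among the activators, E2f3 is the member with the most counts (1688 to 4812 per 4sU library). Its nascent RNA was 173 and 192 CPM in AID-Yeats2 against 319 and 313 in WT, and 217 and 195 CPM in AID-Zzz3 against 309 and 331 in WT. Both clones of either line lay below both WT libraries. The difference was 1.72-fold lower in AID-Yeats2 (log2 -0.78 ± 0.08) and 1.55-fold lower in AID-Zzz3 (log2 -0.63 ± 0.10, adjusted p = 0.0366). E2f3 was 253 and 267 CPM in the libraries labelled Supt7l-/-, also below both WT libraries, with a smaller difference that did not pass (-0.28 ± 0.07, adjusted p = 0.0791). That difference passed with no filter on low counts and in a fit of all 6 4sU libraries of project 2. Over the 4 fits that leave out a library it ran from -0.32 to -0.24. In AID-Tada3 it was 248 and 281 CPM against 302 and 326 (-0.24 ± 0.10, adjusted p = 0.565).

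E2f1, the activator best known for driving S-phase genes, did not follow E2f3. It stood at 33.6 and 31.9 CPM in AID-Yeats2 against 25.8 and 27.6 in WT (log2 0.31 ± 0.11), and at 35.6 and 29.9 in AID-Zzz3 against 27.6 and 31.0, where the groups overlap (0.16 ± 0.15, adjusted p = 0.696). The libraries labelled Supt7l-/- had 18.3 and 22.1 CPM (-0.40 ± 0.14, adjusted p = 0.202). E2f2, the remaining activator, overlapped between AID-Yeats2 and WT (0.10 ± 0.16). Its difference farthest from 0 was in AID-Tada3, at 13.2 and 13.9 CPM against 20.4 and 15.99 (-0.43 ± 0.16, adjusted p = 0.563).

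Of the repressors, E2f4 and E2f5 passed in no mutant against WT under TMM scaling, while spike-in scaling called E2f4 lower in AID-Yeats2 and E2f5 lower in AID-Yeats2 and AID-Zzz3. E2f4 differed by -0.28 ± 0.12 in AID-Yeats2, -0.21 ± 0.14 in the libraries labelled Supt7l-/-, -0.17 ± 0.12 in AID-Tada3 and -0.14 ± 0.14 in AID-Zzz3. E2f5 stayed between -0.05 ± 0.11 (AID-Zzz3) and 0.10 ± 0.11 (Supt7l-/-). E2f6 had 15.3 and 14.7 CPM in AID-Yeats2 and 19.4 and 15.8 in the libraries labelled Supt7l-/- against 14.3 and 11.3 in WT. The last difference was 0.45 ± 0.18 and did not pass (adjusted p = 0.243), and WT of the other projects reached 16.4 to 17.4 and 13.5 to 19.4 CPM.

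The atypical repressors had the fewest counts among the genes that were lower. E2f8 stood at 6.14 and 6.24 CPM in AID-Yeats2, from 60 and 62 counts, against 15.3 and 15.0 in WT, from 159 and 141 counts. This is 2.42-fold lower (log2 -1.28 ± 0.17). In AID-Zzz3 it was 9.36 and 7.29 CPM against 15.8 and 18.3, without overlap, and the difference did not pass (log2 -1.04 ± 0.20, 95% interval -1.50 to -0.58, adjusted p = 0.0641). It did pass there in DESeq2, with no filter on low counts and in a fit of all 14 4sU libraries. Over the 4 fits that leave out a library it ran from -1.22 to -0.86. In the libraries labelled Supt7l-/- (12.4 and 10.5 CPM, -0.41 ± 0.17) and in AID-Tada3 (12.0 and 12.2 CPM against 13.9 and 15.4, -0.27 ± 0.15) E2f8 did not pass either (adjusted p = 0.262 and 0.670).

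E2f7 lay below WT in both clones of AID-Yeats2 and AID-Zzz3, without a call in either in the main edgeR fit. It was 26.7 and 28.0 CPM in AID-Yeats2 against 36.3 and 34.1 in WT (-0.35 ± 0.11) and 25.8 and 29.1 CPM in AID-Zzz3 against 41.3 and 41.1 (-0.57 ± 0.13, adjusted p = 0.103). In AID-Zzz3 it did pass with no filter on low counts, in a fit of all 14 4sU libraries and under spike-in scaling. Spike-in scaling was among the alternatives that called it lower in AID-Yeats2. Over the 4 fits that leave out a library E2f7 ran from -0.40 to -0.31 in AID-Yeats2 and from -0.67 to -0.50 in AID-Zzz3. Supt7l-/- libraries had 38.8 and 37.9 CPM, above both WT libraries, and in AID-Tada3 it was 44.0 and 46.6 against 38.7 and 48.1. Neither difference passed (0.12 ± 0.11, adjusted p = 0.655, and 0.06 ± 0.12, adjusted p = 0.921).

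The DP partners differed from each other. Tfdp1, the major DP protein in most tissues, was 56.0 and 59.8 CPM in AID-Yeats2 against 109 and 119 in WT, which is 1.94-fold lower (log2 -0.96 ± 0.09). In AID-Zzz3 it was 71.8 and 71.1 CPM against 117 and 121, which is 1.65-fold lower (log2 -0.73 ± 0.10, adjusted p = 0.0225). The clones of each of these lines lay close together and far below WT. In the libraries labelled Supt7l-/- Tfdp1 was 105 and 103 CPM (-0.13 ± 0.09, adjusted p = 0.493), and in AID-Tada3 108 and 119 against 117 and 133 (-0.14 ± 0.10, adjusted p = 0.754). Tfdp2 was 222 and 216 CPM in AID-Yeats2 against 196 and 220.1 in WT (0.09 ± 0.08), and 212 and 232 in AID-Zzz3 against 196 and 229 (0.07 ± 0.11, adjusted p = 0.842). In both the groups overlap.

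Single libraries decide part of these calls. Without AID-Yeats2 replicate 1 only Tfdp1 of the 10 was called in AID-Yeats2, and without replicate 2 E2f3 and Tfdp1 were. Over the 4 fits that leave out a library, the AID-Yeats2 values ran from -0.86 to -0.71 in E2f3, -1.29 to -1.27 in E2f8 and -1.03 to -0.90 in Tfdp1 (log2). Without either AID-Zzz3 clone 0 were called there, although the log2 values of E2f3 (-0.71 to -0.56) and Tfdp1 (-0.77 to -0.70) kept their sign over the 4 fits that leave out a library. In the libraries labelled Supt7l-/- such fits gave -0.54 to -0.27 for E2f1, 0.29 to 0.63 for E2f6 and -0.31 to -0.14 for Tfdp2. In AID-Tada3 they gave -0.59 to -0.24 for E2f2 and -0.26 to -0.08 for Tfdp2. The number of all genes called also changed with the library left out. Counts of called members in these fits are therefore not read as results about the members.

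**Figure D3:**
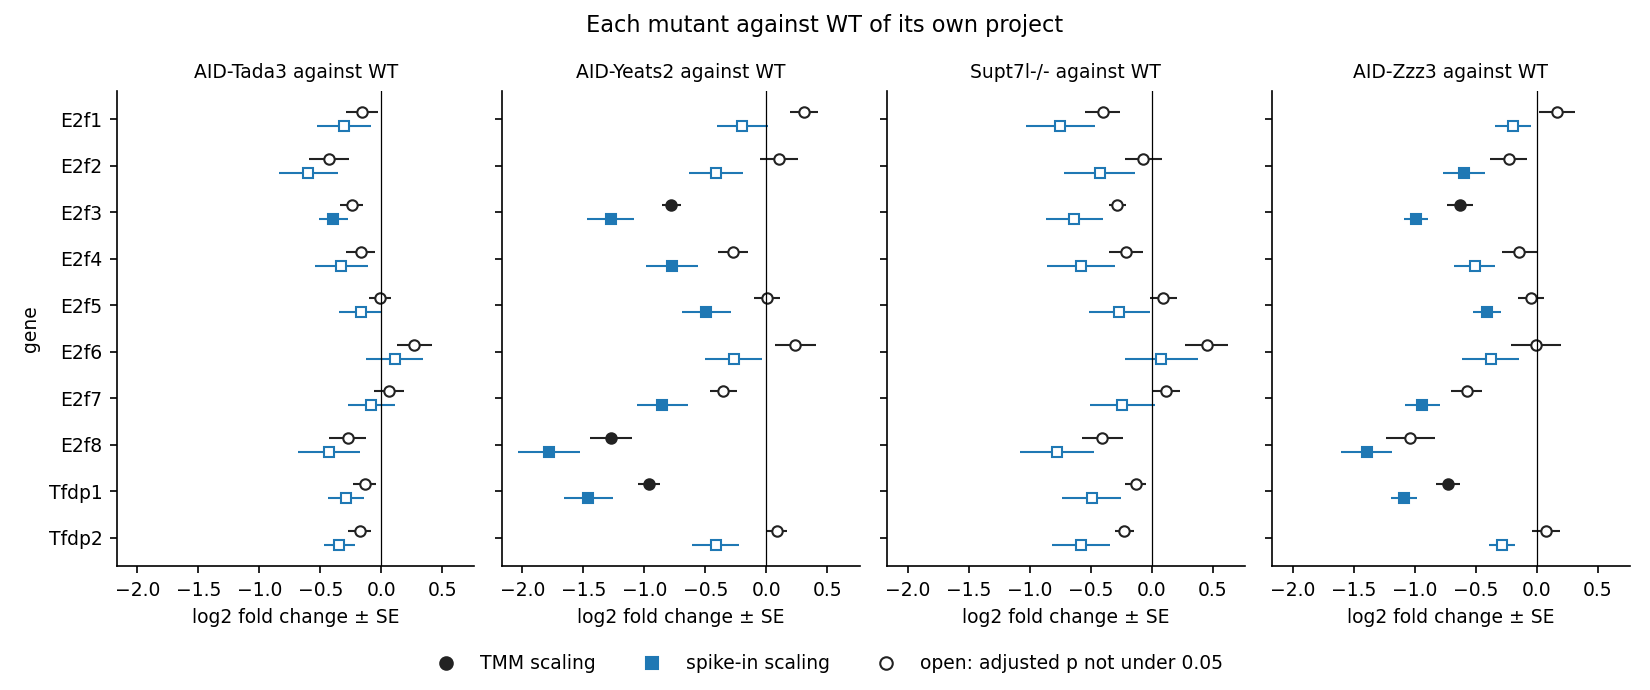
Log2 fold change of each gene against WT of the same project, with its SE, for TMM scaling (black circles) and spike-in scaling (blue squares), filled where the adjusted p was under 0.05. Spike-in scaling moves each value to the left, and E2f3, Tfdp1, E2f7 and E2f8 keep their place left of the other members in AID-Yeats2 and AID-Zzz3.

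Labelled RNA of Drosophila S2 cells (project 1) or of S. pombe (projects 2 and 3) served as a spike-in, which allows scaling to an outside standard. Under it the median of all tested genes moved on the log2 scale to -0.50 in AID-Yeats2, to -0.36 in both AID-Zzz3 and Supt7l-/-, and to -0.16 in AID-Tada3. Members lower at an adjusted p under 0.05 then numbered 1 in AID-Tada3 (E2f3, where 1.48% of genes were lower), 6 in AID-Yeats2 (where 43.6% were) and 6 in AID-Zzz3 (where 24.7% were). The 6 in AID-Zzz3 were E2f8 (-1.39 ± 0.21), Tfdp1 (-1.09 ± 0.11), E2f3 (-0.99 ± 0.10), E2f7 (-0.94 ± 0.14), E2f2 (-0.60 ± 0.17) and E2f5 (-0.41 ± 0.12). Of the last 2, E2f5 lies near the shifted median of -0.36 and E2f2 lies below it. In AID-Yeats2 the signs of E2f1, E2f2, E2f5, E2f6 and Tfdp2 turned from above 0 to below it (-0.20 ± 0.21, -0.41 ± 0.22, -0.49 ± 0.20, -0.27 ± 0.23 and -0.42 ± 0.19), and E2f5 was called lower. E2f3 (-1.28 ± 0.19), Tfdp1 (-1.46 ± 0.20), E2f8 (-1.78 ± 0.25), E2f7 (-0.85 ± 0.21) and E2f4 (-0.78 ± 0.21) were the other 5 called there, each below the shifted median. In the libraries labelled Supt7l-/- 0 members passed in the main edgeR fit under TMM scaling or with spike-in scaling.

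**Figure D4:**
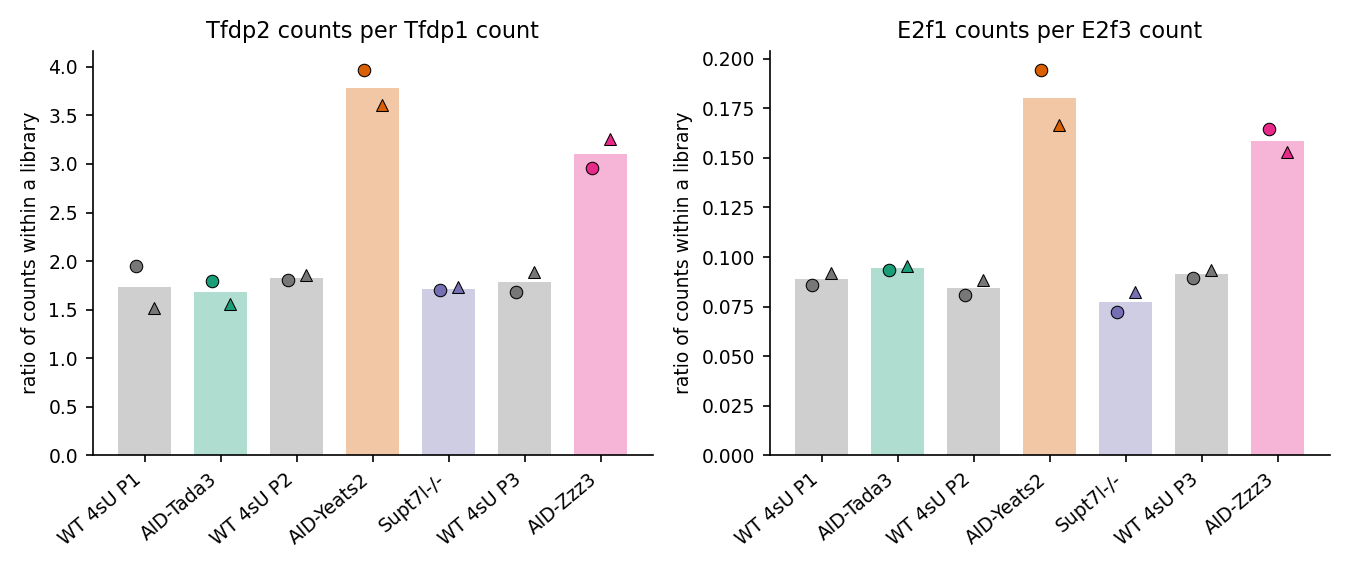
Counts of Tfdp2 per count of Tfdp1 (left) and of E2f1 per count of E2f3 (right) within each 4sU library, with bars for the mean of 2 libraries. Both AID-Yeats2 and both AID-Zzz3 libraries lie above all 6 WT libraries in both panels.

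A ratio of 2 genes within a library needs no scaling. Each pair sets a member that was not lower in AID-Yeats2 and AID-Zzz3 under TMM scaling over a member that was lower there. Higher ratios in these lines therefore restate the differences given above and are not separate support. Tfdp2 had 3.97 and 3.61 counts per Tfdp1 count in AID-Yeats2 against 1.80 and 1.85 in WT, a 2.07-fold higher mean. In AID-Zzz3 the ratio was 2.95 and 3.26 against 1.68 and 1.88, 1.74-fold higher. The libraries labelled Supt7l-/- (1.70 and 1.74) and AID-Tada3 (1.79 and 1.56) had ratios within the span of the 6 WT libraries (1.51 to 1.95). E2f1 counts per E2f3 count were 0.194 and 0.166 in AID-Yeats2 against 0.0807 and 0.0884, and 0.164 and 0.153 in AID-Zzz3 against 0.0893 and 0.0937. The libraries labelled Supt7l-/- had 0.0725 and 0.0826, and AID-Tada3 had 0.0934 and 0.0955 against 0.0860 and 0.0921. An exact two-sided permutation test of 2 against 2 libraries cannot go below p = 0.33, so it cannot decide on any of these ratios. Besides both AID-Zzz3 ratios, Tfdp2 per Tfdp1 in Supt7l-/- (0.939-fold) and E2f1 per E2f3 in AID-Tada3 (1.06-fold) also gave that value.

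The mutants were then compared with each other. AID-Yeats2 and the libraries labelled Supt7l-/- share a project and were compared directly. At an edgeR adjusted p under 0.05, E2f1 (log2 0.71 ± 0.12) and Tfdp2 (0.31 ± 0.06) were higher in AID-Yeats2, as were 15% of 14222 tested genes. Tfdp1 (-0.83 ± 0.07), E2f3 (-0.50 ± 0.06), E2f7 (-0.47 ± 0.10) and E2f8 (-0.87 ± 0.19) were lower, as were 12.8%. Under spike-in scaling only Tfdp1 of the 10 was called (-0.97 ± 0.28). As with AID-Yeats2 against WT, nothing is read from these calls.

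Across projects, the effect of a mutant against its own WT was compared in a fit of all 14 4sU libraries. AID-Yeats2 and AID-Zzz3 effects differed in 0 of the 10 genes in edgeR and 0 in DESeq2, and 0% of 15426 genes passed in edgeR. None of the 10 had an unadjusted p under 0.05, where 379 of the 15426 genes did. The interval of the difference still allows sizes of -0.50 to 0.03 for Tfdp1 and -0.42 to 0.11 for E2f3 on the log2 scale. E2f8 (-0.24 ± 0.24), E2f2 (0.33 ± 0.21) and E2f6 (0.24 ± 0.26) had larger SE, so wider differences are allowed for them. The AID-Zzz3 effect was below the Supt7l-/- effect in E2f7 (-0.70 ± 0.16, adjusted p = 0.0464) and Tfdp1 (-0.61 ± 0.12, adjusted p = 0.0239), where 1.24% of genes differed either way. It was below the AID-Tada3 effect in Tfdp1 (-0.60 ± 0.12, adjusted p = 0.0237), where 1.04% did. As a description, the AID-Yeats2 effect minus the AID-Tada3 effect was -0.83 ± 0.12 in Tfdp1, -0.55 ± 0.12 in E2f3 and -1.01 ± 0.23 in E2f8, the 3 members called, where 1.43% of genes were. The Supt7l-/- and AID-Tada3 effects differed in 0 of the 10 in edgeR, where 0.0194% of genes did, and 0 in DESeq2. An unadjusted p under 0.05 was found there for 0 members and for 1604 of the 15426 genes. Project and mutant cannot be told apart in comparisons across projects except through each project's WT. Under spike-in scaling the 3 calls of AID-Zzz3 effects against the Supt7l-/- and AID-Tada3 effects were not made, with differences of -0.60 ± 0.25 (Tfdp1) and -0.70 ± 0.29 (E2f7) against Supt7l-/- and of -0.80 ± 0.25 (Tfdp1) against AID-Tada3. These lay within 1 of their own, larger SE of the TMM values, though Tfdp1 against AID-Tada3 lay more than 1 SE of the TMM fit away. The 3 calls of AID-Yeats2 against AID-Tada3 were made. Of the 8 fits that leave out a library, 3 kept the call of Tfdp1 and 2 that of E2f7 for AID-Zzz3 against Supt7l-/-, and 2 kept Tfdp1 for AID-Zzz3 against AID-Tada3. For AID-Yeats2 against AID-Tada3 all 8 called Tfdp1, while E2f3 and E2f8 were called only without WT replicate 2 of project 1, and DESeq2 called E2f3 and Tfdp1.

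**Figure D5:**
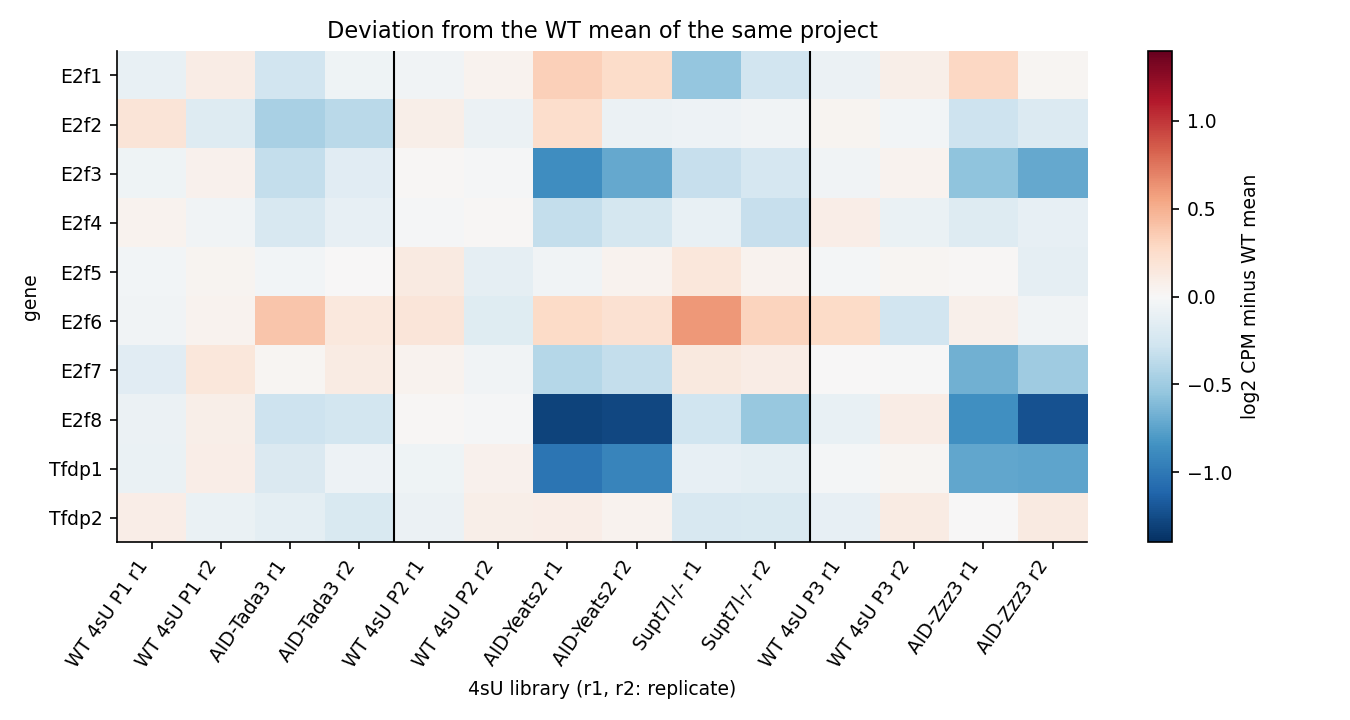
Log2 CPM of each gene (rows) in each 4sU library (columns) minus the WT mean of the same project, from blue (lower) to red (higher), with black lines between projects. E2f3, E2f8 and Tfdp1, and less so E2f7, are blue in the AID-Yeats2 and AID-Zzz3 libraries.

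Over the 14 4sU libraries, each expressed against its own project's WT mean, the members nearest to each other were E2f3 and E2f8 (r = 0.976), E2f8 and Tfdp1 (r = 0.968) and E2f3 and Tfdp1 (r = 0.963). E2f7 followed Tfdp1 (r = 0.842) and E2f8 (r = 0.769) less closely. E2f1 ran against E2f7 (r = -0.66), and Tfdp2 against E2f6 (r = -0.71). These correlations describe 14 libraries that fall into mutant and WT groups and share WT references. Among 12381 protein-coding genes with a mean of at least 1 CPM, the 5 most like E2f8 were E2f3, Mettl9 (r = 0.971), Tfdp1, Ssrp1 (r = 0.967) and Nup85 (r = 0.964). Ssrp1 is a subunit of the FACT histone chaperone and Nup85 a nuclear pore protein. In AID-Zzz3 their log2 changes were -0.33 (Mettl9), -0.39 (Ssrp1) and -0.51 (Nup85). The AID-Zzz3 libraries were among those used to pick these genes, so lower values there follow from the choice.

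Genes that act around E2F were taken from lists drawn up for this family. For each mutant, their counts of calls and of unadjusted p under 0.05 stand beside the values over all genes given above. Among the pocket proteins, Rbl2 was higher in AID-Yeats2 (0.58 ± 0.10, 1 of 3 called, where 2.28% of all genes were), with 0 of 3 called in edgeR and in DESeq2 in AID-Zzz3, where 2 had an unadjusted p under 0.05 and Rbl2 was 0.53 ± 0.12 (adjusted p = 0.115). Of the 15 cyclins, kinases and kinase inhibitors upstream, 13 were tested in AID-Yeats2 and 12 in AID-Zzz3. Ccne2, a cyclin that is both an E2F target and an E2F-releasing partner of Cdk2, was lower in AID-Yeats2 (-1.13 ± 0.18) and fell in AID-Zzz3 (-0.95 ± 0.14, adjusted p = 0.0285). Cdk6, a kinase that acts on the pocket proteins, was higher in AID-Yeats2 (0.47 ± 0.08), and 0.31 ± 0.15 in AID-Zzz3 did not pass (adjusted p = 0.436). No other gene of that list passed in these 2 lines in edgeR. Under spike-in scaling no pocket protein, cyclin or kinase was called higher in either line. For Supt7l-/- Ccne2 was -0.09 ± 0.14 (adjusted p = 0.795).

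Downstream, 29 of 30 S-phase genes known as E2F targets were tested. In AID-Yeats2, 0 were higher and 5 lower, where 1.55% of all genes were lower, with a list median of -0.18 against 0.00645 over all genes. The 3 with the smallest p were Dnmt1 (-0.48 ± 0.08), the maintenance DNA methyltransferase, Chaf1a (-0.45 ± 0.09), a subunit of the replication-coupled histone chaperone CAF-1, and Slbp (-0.54 ± 0.11), which binds histone mRNA. In AID-Zzz3 the list median was also -0.18, against 0.00294 over all genes, with 0 of 29 called in edgeR, 1 in DESeq2 and 10 at an unadjusted p under 0.05. Dnmt1 was -0.37 ± 0.10 there (adjusted p = 0.182). The libraries labelled Supt7l-/- and AID-Tada3 had list medians of -0.23 and -0.15 against -0.00148 and -0.00455 over all genes, with 1 gene lower in the first, Uhrf1 (-0.51 ± 0.10, adjusted p = 0.0339, where 1.88% of all genes were called), and 0 of 29 in the second in edgeR and in DESeq2, where 5 had an unadjusted p under 0.05. Under spike-in scaling the list medians were -0.68 (AID-Yeats2), -0.55 (AID-Zzz3), -0.58 (Supt7l-/-) and -0.31 (AID-Tada3), against shifted medians over all genes of -0.50, -0.36, -0.36 and -0.16.

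Of the MuvB core and its partners, which repress or activate late cell cycle genes, 7 of 7 were tested. In the libraries labelled Supt7l-/- 1 fell, Mybl2 (-0.35 ± 0.07, edgeR adjusted p = 0.0359), where 1.88% of all genes were called. The other mutants had 0 in edgeR and DESeq2, with 2 in AID-Yeats2, 1 in AID-Tada3 and 0 in AID-Zzz3 at an unadjusted p under 0.05. Of all genes, edgeR called 0.0331% in AID-Tada3. It called 2.28% higher and 1.55% lower in AID-Yeats2, and 0.681% and 0.303% in AID-Zzz3. The 10 partners of E2f6 in the Polycomb complex PRC1.6 were all tested and 0 passed in any mutant in edgeR. There were 1 to 3 at an unadjusted p under 0.05 and 1 called by DESeq2, in AID-Yeats2. With so few of all genes called, the counts of 0 are not read as results about these 2 lists. Of 5 germline genes known to be repressed by E2f6, 3 were tested in the libraries labelled Supt7l-/- and 1 fell, Stag3 (-0.70 ± 0.11, adjusted p = 0.0105), where 1.88% of all genes were called.

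For AID-Zzz3 the authors' deposited table gives log2 fold changes of -0.998 for Tfdp1 (adjusted p = 5.11e-09) and -0.92 for E2f3 (adjusted p = 2.35e-09). It gives -1.06 for E2f8 (adjusted p = 0.000181), -0.82 for E2f7 (adjusted p = 0.000228) and -0.37 for E2f5 (adjusted p = 0.0484). E2f8, E2f7 and E2f5 were not called here in the main edgeR fit under TMM scaling, but were under spike-in scaling. E2f8 and E2f7 were also called in edgeR under TMM scaling with no filter on low counts and in a fit of all 14 4sU libraries. For the Supt7l-/- comparison the authors' deposited table gives E2f3 -0.57 (adjusted p = 0.0349), E2f1 -0.64 (adjusted p = 0.0475) and Tfdp2 -0.53 (adjusted p = 0.0391). None of these was called here in the main edgeR fit under TMM scaling or with spike-in scaling. E2f3 did pass under TMM scaling with no filter on low counts and in a fit of all 6 4sU libraries of project 2. The values here were -0.28, -0.40 and -0.22 under TMM scaling and -0.63, -0.75 and -0.58 under spike-in scaling for E2f3, E2f1 and Tfdp2, so the deposited values lie nearer to the latter. In the authors' deposited table each member has an adjusted p of 0.998 for AID-Tada3.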

How the data were processed

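The members and gene lists were chosen with earlier results of these data known. The deposited tables give mouse and spike-in counts per gene and library, with a median transcript length, and the authors' log2 fold changes and p-values, per the file headers. The submitters' processing notes name cutadapt 1.10, Bowtie2 2.2.8, STAR 2.5.3a, HTSeq 0.6.1p1, DESeq2 1.16.1 and mm10, without saying how each was used. The strand setting of the counting is not given in the sources used here. All columns of per-sample counts were mapped to the 16 libraries.

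From the counts, genes were filtered with filterByExpr (minimum count 10), scaled by TMM and tested with edgeR 4.0.16 (quasi-likelihood, robust) in R 4.3.3, on the libraries of the groups compared. Differences between mutant effects used all 14 4sU libraries, and Tir1/BirA lines were compared with project as a term. P-values were adjusted over all tested genes (Benjamini-Hochberg, threshold 0.05), and errors are SE of log2 values. All 10 members passed the filter in each comparison. The text names all members, up to 3 called genes per list with the smallest p, and the 5 genes most like E2f8. Alternatives were DESeq2 1.42.0, its size factors in edgeR, spike-in counts as scale, no filter, at least 50 counts in each library of a group, joint fits, replicate blocks, and leaving out each library. A fit that leaves 1 library in a group takes that library to vary like the others. WT 4sU and total RNA libraries pair by cell line (deviations of same-numbered libraries correlated at 0.543 over 8697 genes). With 2 libraries a group, p-values measure the spread between clones or lines. The fits were tested on simulated counts.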

Additional observations from a re-analysis of the deposited data

Results flagged for a closer look

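Differences between 2 mutants that passed the threshold are collected here as log2 values, and those that hold AID-Yeats2 libraries are a description only. AID-Yeats2 against the libraries labelled Supt7l-/- differed by 0.71 in E2f1, 0.31 in Tfdp2, -0.50 in E2f3, -0.47 in E2f7, -0.87 in E2f8 and -0.83 in Tfdp1. The AID-Zzz3 effect differed from the Supt7l-/- effect by -0.70 in E2f7 and -0.61 in Tfdp1, and from the AID-Tada3 effect by -0.60 in Tfdp1. The AID-Yeats2 effect differed from the AID-Tada3 effect by -0.55 in E2f3, -1.01 in E2f8 and -0.83 in Tfdp1. Groups of 2 libraries are too small to look for a library far from the others of its group.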

How the results depend on the processing

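Of 1280 member values under alternatives, 1172 kept their side of the threshold and either their sign or, if uncalled, a value within 1 SE, 47 lost a call, 29 gained one, 31 uncalled values changed sign by more than their SE and 1 reversed: E2f5 in AID-Yeats2 against WT, at -0.492 under spike-in scaling. Members called under spike-in scaling were 1 in AID-Tada3, 6 in AID-Yeats2, 6 in AID-Zzz3, 1 for AID-Yeats2 against Supt7l-/-, and 0 for the AID-Zzz3 effect against the Supt7l-/- and AID-Tada3 effects. With no filter 1 was called in Supt7l-/- and 4 in AID-Zzz3. The fit of all 14 4sU libraries called 4 in AID-Zzz3, and a fit of the 6 4sU libraries of project 2, added after seeing the data, called 1 in Supt7l-/-. Leaving out each library in turn gave 0 to 2 calls in AID-Tada3, 1 to 5 in AID-Yeats2, 0 to 4 in Supt7l-/-, 0 to 3 in AID-Zzz3, 0 to 2 for the AID-Zzz3 effect against the Supt7l-/- effect, 0 to 2 against the AID-Tada3 effect, and 1 to 4 for the AID-Yeats2 effect against the AID-Tada3 effect. For AID-Yeats2 against Supt7l-/-, where clones share only a number (deviations correlated at 0.0804), the fit with clone number as a replicate block called 6, as without it. The block by WT line called 7 members between 4sU and total RNA against 6 and changed the call of E2f1 only. Levels per merged exon length were added after seeing the data. The cause of these changes was not tested. In the fits that leave out a library the number of all genes called changed too, so their counts are not read as results about the members. Depth limits the members with few counts, such as E2f8 with 60 to 226 and E2f6 with 106 to 330 per 4sU library.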
